A study of Homo sapiens with 12 samples.

Results

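The HEK-293T cells with an inducible hairpin against CNOT1 were compared with those carrying one against CNOT3, using the arrays of both lines without and with doxycycline (Dox). This comparison takes 4 of the 12 arrays of the series, 2 of each line, and pairs them by Dox state. HEK-293T is a human embryonic kidney line that carries the SV40 large T antigen; the labels spell it HEK 292T. Each line consists of cell clones with a stably integrated pINDUCER (pIND) plasmid, from which Dox switches on a miR30-based short hairpin RNA. The 4 groups were pIND CNOT1 without Dox, pIND CNOT1 with Dox, pIND CNOT3 without Dox and pIND CNOT3 with Dox, and Dox was given at 1 µg/ml for 4 days. The other 8 arrays belong to a CNOT2 line and to a control line with a hairpin against luciferase (Luci), with 4 arrays each, and serve here only as a reference range. A condition of the CNOT1 or CNOT3 line has 1 array, so the differences in the 2 Dox states stand as the 2 values behind each line difference. The hairpin, the clones it was selected in and expression of the hairpin without Dox differ between the lines together and cannot be told apart.

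CNOT1 and CNOT3 are both subunits of CCR4-NOT, the complex that shortens the poly(A) tail of mRNAs and acts on transcription in the nucleus as well. CNOT1 is its large scaffold, on which the deadenylases and the NOT module assemble, and CNOT3 pairs with CNOT2 in the NOT module. HEK-293 cells have an abnormal karyotype that varies between their sublines.

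The targeted genes were looked at first. Signals are log2 values, on which a difference of 1 is 2-fold. CNOT1 was at 7.23 in the CNOT1 line without Dox and at 5.07 with Dox, against 6.49 and 6.35 in the CNOT3 line and 6.43 to 7.24 on the 8 other arrays. The CNOT1 array with Dox lay furthest below this range, and the CNOT3 array with Dox just below it. CNOT3 was at 10.21 and 10.28 in the CNOT1 line, at 8.96 in the CNOT3 line without Dox and at 6.80 with Dox, while the 8 other arrays held 9.76 to 10.68. Both CNOT3-line arrays thus lay below all others, the one without Dox included. This is the brighter of 2 spots for CNOT3, and the other spot differed by -0.25 between the lines. Both lines carried the epithelial keratin KRT18 at 10.96 to 11.71 and the filament protein vimentin (VIM) at 14.55 to 14.70. The keratin KRT8 differed just past 2-fold, at 7.94 and 8.28 in the CNOT1 line and 6.93 and 7.27 in the CNOT3 line. Its second spot differed by -0.01. The fibroblast markers COL1A1 and PDGFRA were at 6.34 to 6.68 and 4.12 to 5.56. The monocyte marker CD14 was at 4.51 to 5.48 and the endothelial markers VWF and PECAM1 were at 2.78 to 4.38, close to the lower part of the signal range. Of the 12 CCR4-NOT subunits measured, CNOT3 alone differed by more than 2-fold between the lines in both Dox states. None of 49 adaptors and other mRNA decay factors did, where 6.31% of all genes tested did.

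In the limma fit to the 4 arrays with Dox state as a term, 0 of 15048 genes (0.0%) passed an adjusted p of 0.05. The smallest adjusted p was 0.174 and 3172 genes had an unadjusted p under 0.05, with 1 residual degree of freedom behind the test. With the replicate number as a block on all 12 arrays, where the spread comes from the CNOT2 and Luci lines, limma passed 231 genes (1.54%), 123 higher in the CNOT1 line and 108 higher in the CNOT3 line. With a spread that follows the signal level, fitted to the 4 arrays, it passed 2838 genes (18.9%). Genes were therefore described by size. A gene was counted when the lines differed by more than 2-fold in the same direction without and with Dox. By this rule 503 genes (3.34%) were higher in the CNOT1 line and 447 (2.97%) were higher in the CNOT3 line. Among them the blocked fit passed 110 and 100. A gene near the floor in one line entered the tested set only through the other line, so such genes had to differ.

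The size of these counts needs the other arrays beside it. Arrays of the CNOT2 and Luci lines are numbered 1 and 2 in the labels. By the same rule the first arrays of the CNOT1 and Luci lines differed in 1440 genes, those of the CNOT3 and Luci lines in 885, and those of the CNOT2 and Luci lines in 174. Arrays of 1 line that carry the numbers 1 and 2 also differed by it, in 752 genes for the CNOT2 line and 869 for the Luci line. The count for the CNOT1 and CNOT3 lines was 950. Across genes, the line differences without and with Dox had a correlation of 0.49 and SDs of 0.82 and 0.78, where the points share the 4 arrays.

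**Figure D1:**
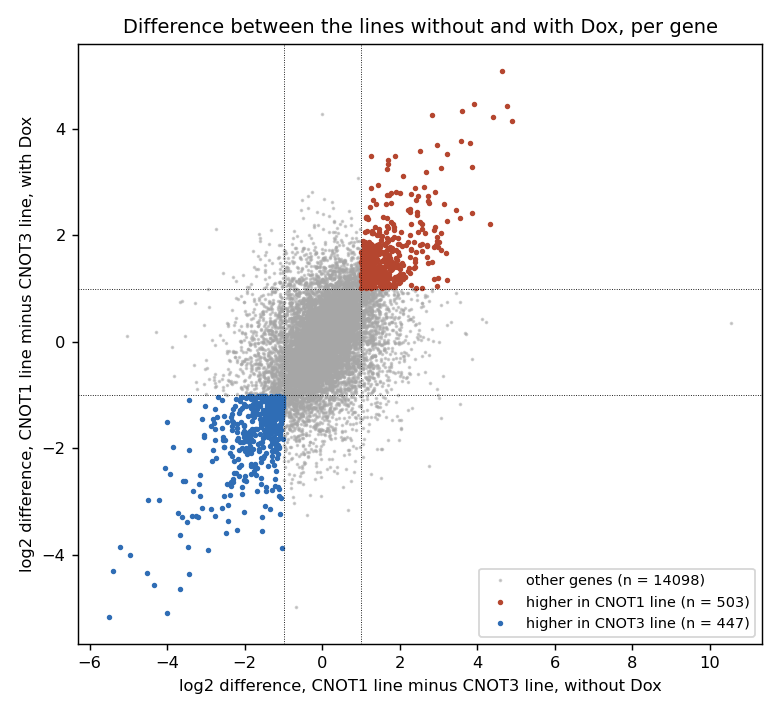
Log2 difference of the CNOT1 line minus the CNOT3 line for each of 15048 genes, without Dox on the horizontal and with Dox on the vertical axis, with dotted lines at a 2-fold difference. The 503 genes in red and the 447 in blue passed 2-fold the same way in both states, and the single point far to the right is OR7C2, high on 1 array only.

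Set against the CNOT2 and Luci arrays, the differences came from both lines. Of the 503 genes higher in the CNOT1 line, both CNOT1 arrays lay above all 8 other arrays for 197 and both CNOT3 arrays below all of them for 224, with 38 genes in both sets. Of the 447 genes higher in the CNOT3 line, both CNOT3 arrays lay above the others for 139 and both CNOT1 arrays below them for 199, with 22 in both sets. The 2-fold rule asks for a gap between the lines, which makes such positions more likely. The share of such positions over all tested genes was not counted. The filter used the mean of the 4 arrays, so a gene near the floor in one line could pass it through the other line. The counts that follow depend in part on this filter, and their share over all tested genes was not counted. Both CNOT3 arrays were under 3.5 for 123 of the 503 genes, and both CNOT1 arrays for 124 of the 447. For 23 and 15 of these, all 8 other arrays were at 3.5 or above.

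The differences were spread unevenly over the chromosomes. Chromosomes 9 and 14 were higher in the CNOT1 line, with median differences of 0.72 over 629 genes and 0.67 over 478 genes. Chromosome 2 was lower in it, with a median of -0.44 over 976 genes, followed by chromosome 21 at -0.32, chromosome 22 at -0.31 and chromosome 1 at -0.22. The median over all genes was 0.00. Both Dox states gave nearly the same medians, 0.74 and 0.72 on chromosome 9, 0.65 and 0.67 on chromosome 14, and -0.47 and -0.43 on chromosome 2. By the 2-fold rule, 150 genes of chromosome 9 (23.8%) and 59 of chromosome 14 (12.3%) were higher in the CNOT1 line, against 3.34% of all genes. On chromosome 2, 66 genes (6.76%) were higher in the CNOT3 line, against 2.97% of all.

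**Figure D2:**
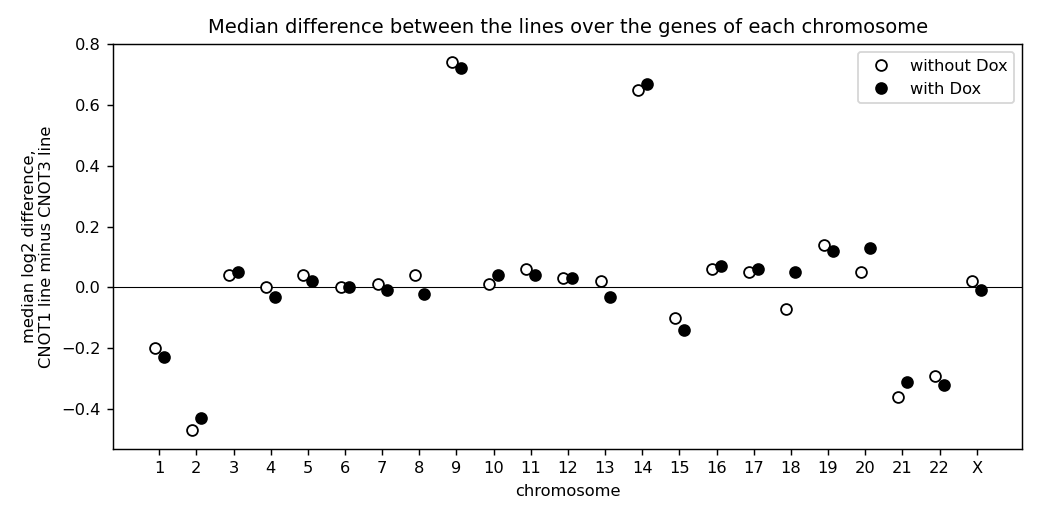
Median log2 difference of the CNOT1 line minus the CNOT3 line over the tested genes of each chromosome, without Dox as open and with Dox as filled points. Chromosomes 9 and 14 lie at 0.65 to 0.74, chromosome 2 lies at -0.47 and -0.43, and most others lie near 0.

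The shifts were followed in genes with a signal of at least 8, which stand well above the floor. On chromosome 14, 227 of 238 such genes were higher in the CNOT1 line, with a median of 0.70, or 1.62-fold. In 15 runs of 15 neighbouring genes the median lay between 0.51 and 0.83, and in the last 13 genes it was 0.88. The proteasome subunit PSMA6 was typical, at 13.72 and 13.71 in the CNOT1 line and 12.96 and 13.07 in the CNOT3 line. The dehydrogenase DHRS4 was at 10.42 and 10.57 against 9.24 and 9.54. Against the mean of the first CNOT2 and Luci arrays, these genes were at 0.67 and 0.64 in the CNOT1 line and at -0.02 and 0.00 in the CNOT3 line, so the CNOT1 arrays were those that stood apart. Within that reference, the CNOT2 arrays were at 0.19 and 0.18 and the Luci arrays at -0.17 and -0.18.

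On chromosome 9 the direction turned along its length. In gene order from WASH1 to MELK, 39 of 45 genes with a signal of at least 8 were lower in the CNOT1 line, with a median of -0.43. From ZFAND5 to EHMT1, at the other end, 188 of 190 were higher in it, with a median of 1.12, or 2.17-fold. These end points were set after the values were seen. In the first stretch the CNOT1 arrays were at -0.40 and -0.30 against the CNOT2 and Luci reference and the CNOT3 arrays both at 0.04. In the long stretch the CNOT1 arrays were both at 0.33 and the CNOT3 arrays both at -0.73. Each line therefore had its own part in the difference, the CNOT3 line the larger. NDUFA8, a subunit of respiratory complex I, was at 13.52 and 13.80 in the CNOT1 line and 12.50 and 12.73 in the CNOT3 line. NRARP, an inhibitor of Notch signalling, was at 11.59 and 11.24 against 9.85 and 9.68. VLDLR, a lipoprotein receptor on chromosome 9, was lower in the CNOT1 line, as most genes of the first stretch were. It was at 5.46 and 5.69 there and at 6.94 and 6.79 in the CNOT3 line.

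**Figure D3:**
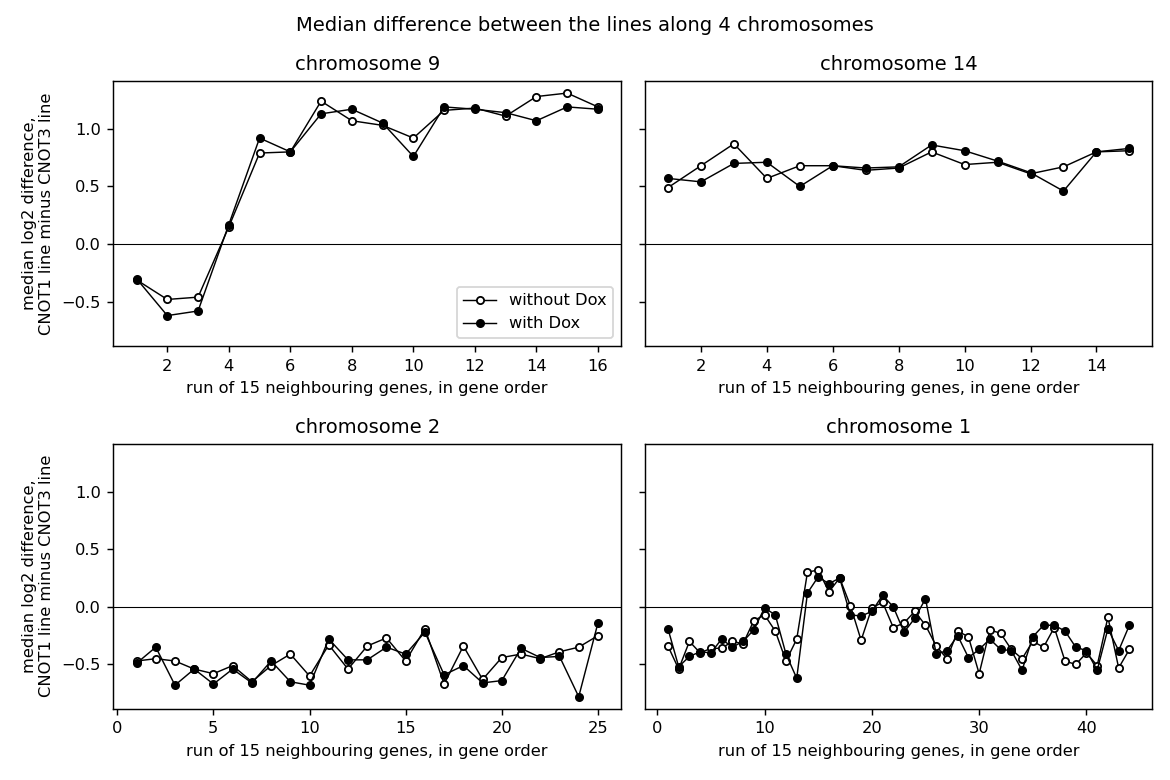
Median log2 difference of the CNOT1 line minus the CNOT3 line in runs of 15 neighbouring genes with a signal of at least 8, in gene order along chromosomes 9, 14, 2 and 1, without Dox as open and with Dox as filled points. On chromosome 9 the first runs lie below 0 and the later ones near 1.12, chromosome 14 stays above 0 and chromosome 2 below 0 throughout.

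Chromosome 2 was lower in the CNOT1 line from end to end. Of 375 genes with a signal of at least 8, 344 lay below 0, with a median of -0.47. The CNOT1 arrays were at -0.29 and -0.33 against the reference and the CNOT3 arrays at 0.15 and 0.18. ATP5G3, a subunit of the ATP synthase, was at 15.02 and 14.94 in the CNOT1 line and at 15.30 and 15.42 in the CNOT3 line. The kinase PDK1, which restrains pyruvate dehydrogenase, was at 6.52 and 5.69 against 8.52 and 8.21. On chromosome 21, 57 of 64 such genes were lower in the CNOT1 line, and here the CNOT3 arrays stood apart at 0.57 and 0.49, with the CNOT1 arrays at 0.18 and 0.08. On chromosome 22, 132 of 162 were lower in the CNOT1 line, whose arrays were at -0.31 and -0.29 with the CNOT3 arrays at 0.05 and 0.03. Chromosome 1 was mixed. The 195 genes from SAMD11 to RLF had a median of -0.36 and the 294 from RBM8A to ZNF692 one of -0.32, while the 180 between them had a median of 0.02, and these limits too were set after the values were seen. On the chromosomes other than these 6, 2486 of 4500 genes with a signal of at least 8 (55.2%) were above 0, with a median of 0.04. Among them chromosome 15 had the lowest share, with 55 of 185 (29.7%) above 0 and a median of -0.15.

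The chromosomes carried a large part of the genes counted as higher in the CNOT1 line. After each difference was centred on the median of its chromosome, 12 of the 150 genes of chromosome 9 and 5 of the 59 of chromosome 14 still passed the 2-fold rule. For chromosome 2, 24 of the 66 genes higher in the CNOT3 line did. A single median per chromosome and Dox state was used. On chromosome 9, with stretches at -0.43 and 1.12, it moved the first stretch further from 0 and left part of the long stretch's shift. All counts after centring carry this limit. DNA copy number was not measured, and its part in these shifts was not tested.

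On chromosome 19, 37 of the 56 genes higher in the CNOT1 line belonged to 1 gene family. ZNF genes code for C2H2 zinc finger proteins, most of which on chromosome 19 carry a KRAB domain and repress transcription, and they lie there in tandem clusters. Of 196 ZNF genes tested on this chromosome, 37 (18.9%) were higher in the CNOT1 line and 1 in the CNOT3 line, with a median difference of 0.65. The median was 0.68 without and 0.67 with Dox, and 166 of the 196 were above 0. The other 871 genes of chromosome 19 had a median of 0.08, with 19 (2.18%) higher in the CNOT1 line and 22 in the CNOT3 line. The 221 ZNF genes elsewhere had a median of 0.18, with 14 (6.33%) higher in the CNOT1 line. After centring on the chromosome median, 47 of 56 chromosome 19 genes higher in the CNOT1 line still passed.

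Promoters of 4 of these ZNF genes are shown because the CNOT3 arrays lay below every other array of the series for all 4, and because they share a short stretch of letters. They are RefSeq sequences on GRCh38.p14, from 250 bases before to 50 bases after the gene start, printed 5′ to 3′ on the strand of the gene, and capitals mark the motif CCAATCAG, which contains the CCAAT box.
ZNF441, chr19:11766750-11767049, plus strand: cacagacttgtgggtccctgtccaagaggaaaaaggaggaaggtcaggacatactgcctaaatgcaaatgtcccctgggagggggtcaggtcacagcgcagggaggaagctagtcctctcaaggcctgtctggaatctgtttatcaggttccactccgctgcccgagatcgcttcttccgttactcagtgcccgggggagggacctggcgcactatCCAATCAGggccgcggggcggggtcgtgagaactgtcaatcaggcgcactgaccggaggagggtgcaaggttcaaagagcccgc
ZNF433, chr19:12035630-12035929, minus strand: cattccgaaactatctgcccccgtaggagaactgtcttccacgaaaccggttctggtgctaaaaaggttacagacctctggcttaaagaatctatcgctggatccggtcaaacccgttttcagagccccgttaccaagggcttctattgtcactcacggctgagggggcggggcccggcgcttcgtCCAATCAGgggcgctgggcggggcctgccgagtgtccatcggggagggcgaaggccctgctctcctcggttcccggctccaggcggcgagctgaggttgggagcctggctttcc
ZNF136, chr19:12162846-12163145, plus strand: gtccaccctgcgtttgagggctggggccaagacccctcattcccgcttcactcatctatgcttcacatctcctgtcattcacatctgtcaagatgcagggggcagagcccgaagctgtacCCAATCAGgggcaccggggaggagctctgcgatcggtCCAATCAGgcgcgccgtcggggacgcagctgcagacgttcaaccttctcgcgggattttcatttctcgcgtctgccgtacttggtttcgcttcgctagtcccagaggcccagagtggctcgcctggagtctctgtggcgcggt
ZNF100, chr19:21767530-21767829, minus strand: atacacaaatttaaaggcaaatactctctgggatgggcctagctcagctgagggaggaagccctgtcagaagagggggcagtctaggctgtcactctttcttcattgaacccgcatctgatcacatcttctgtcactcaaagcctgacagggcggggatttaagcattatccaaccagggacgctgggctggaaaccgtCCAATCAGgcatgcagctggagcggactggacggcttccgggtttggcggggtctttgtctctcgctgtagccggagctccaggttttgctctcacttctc
CCAATCAG was searched on both strands, after it was noticed in these promoters. It occurred in 5.58% of the 11837 promoters matched to tested genes and in 4.16% of all 27305 in the table. Among chromosome 19 ZNF genes with a matched promoter it occurred in 41 of 169 (24.3%). It was found in 12 of the 31 that were higher (38.7%) in the CNOT1 line and in 29 of the other 138. The 4 promoters printed above, in which the motif was noticed, were among the 12. The share of 38.7% is therefore not independent of how the motif was chosen, and whether it exceeds that of the other 138 was not tested. ZNF genes of other chromosomes had it in 12.8% and the other genes of chromosome 19 in 6.92%. These are counts of letters, and genes of 1 cluster share sequence by descent.

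The levels show how these genes differed. Of the 37 ZNF genes higher in the CNOT1 line, both CNOT3 arrays lay below all 8 others for 19, against 224 of the 503 over all chromosomes. Both CNOT1 arrays lay above all of them for 17, against 197 of the 503. ZNF441 was at 6.11 and 6.10 in the CNOT1 line without and with Dox and at 2.53 and 2.33 in the CNOT3 line, with 5.31 to 6.71 on the 8 other arrays. ZNF433 was at 4.97 and 5.80 against 3.10 and 2.31 in the CNOT3 line, and at 3.89 to 6.69 elsewhere. ZNF136 was at 6.23 and 5.80 in the CNOT1 line, at 2.38 and 3.38 in the CNOT3 line and at 4.61 to 7.43 on the others. For these 3 genes the CNOT1 arrays lay inside the range of the others and the CNOT3 arrays below it. ZNF100 was at 7.56 and 7.21 against 4.82 and 4.61, with 6.47 to 8.31 on the others. ZNF284 had 5.56 and 5.46 against 2.66 and 2.64, with 5.33 to 7.17 on the others. In ZNF468, by contrast, the CNOT1 arrays at 6.85 and 6.78 lay above the other 8, which held 3.96 to 5.80, and the CNOT3 arrays at 3.24 and 2.45 below them. ZNF793 did the same, at 6.2 and 5.83 against 2.33 and 2.54, with 3.35 to 5.16 on the others. ZNF256 was at 7.04 and 7.37 against 2.71 and 5.16. Both CNOT3 arrays were under 3.5 for 20 of the 37 genes, of which 7 were at 3.5 or above on all 8 other arrays. Here too the filter could keep a gene low in one line through the other. Over all 196 genes the median level was 6.26 and 5.96 on the CNOT1 arrays, 5.46 and 5.36 on the CNOT3 arrays and 5.34 to 6.10 on the others. ZNF sequences resemble each other, and how far 1 probe reads several of them was not tested.

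**Figure D4:**
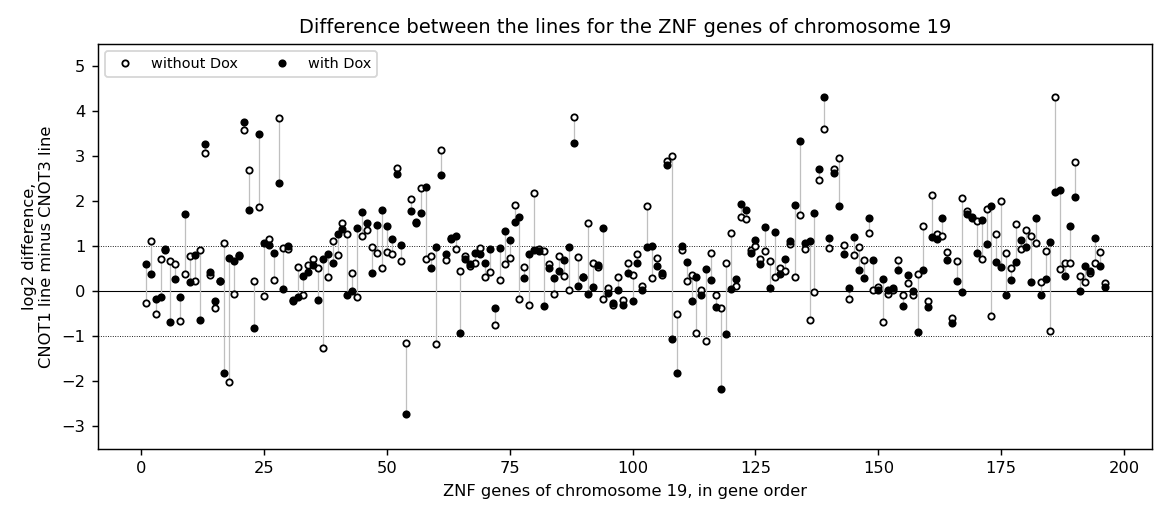
Log2 difference of the CNOT1 line minus the CNOT3 line for 196 ZNF genes of chromosome 19 in gene order, without Dox as open and with Dox as filled points joined by a line, with dotted lines at a 2-fold difference. Of these genes 166 have a mean difference above 0, and those past 2-fold in both states lie in several groups along the chromosome.

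The largest single differences were in genes that were low in one line. DHRS2, a dehydrogenase coded on chromosome 14, was at 8.43 and 9.81 in the CNOT1 line and at 3.79 and 4.73 in the CNOT3 line, a log2 difference of 4.86 (SE 0.22). The 8 other arrays ran from 2.94 to 7.27, so only the CNOT1 line stood above. ANGPTL2, a secreted angiopoietin-like protein coded on chromosome 9, was likewise at 6.68 and 6.82 in the CNOT1 line, against 2.77 and 2.36 in the CNOT3 line and 2.03 to 3.20 elsewhere. The transcription factor DMRTA2 was at 6.41 and 6.40 against 2.60 and 2.66, with 2.80 to 4.53 on the others. VCX2, of a testis-expressed family on the X chromosome, was at 7.09 and 7.39 against 4.37 and 4.66, with 3.97 to 5.78 elsewhere, and its second spot differed by 0.85. For all 4 genes the CNOT1 arrays lay above the 8 others. The CNOT3 arrays lay below them for DMRTA2 alone.

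Other genes were low in the CNOT3 line while every other array had them. COL2A1, the collagen of cartilage, was at 7.48 and 7.02 in the CNOT1 line and at 2.72 and 2.59 in the CNOT3 line, with 7.91 to 9.23 on the 8 other arrays, a difference of 4.60 (SE 0.20). The zinc finger gene ZSCAN18 was at 8.53 and 9.22 against 4.13 and 5.0, with 8.24 to 10.46 elsewhere. The CNOT1 arrays lay inside the range of the other 8 for ZSCAN18 and just below it for COL2A1. AGMAT, an agmatinase-like enzyme, was at 5.6 and 5.72 against 2.38 and 2.20, with 4.57 to 5.97 elsewhere, and all 9 of its spots had the same direction. SLC13A3, a transporter of dicarboxylates in the kidney, was at 7.28 and 7.42 against 4.33 and 3.72, with 5.84 to 8.09 elsewhere. Its 2 spots did not have the same direction. LGALS3 and HES5 were below the other arrays in both lines. LGALS3, coding for galectin-3 on chromosome 14, was at 7.54 and 7.87 in the CNOT1 line and 2.64 and 3.72 in the CNOT3 line, against 9.98 to 12.37 on the others. Its second spot had the same direction but a difference of 0.32. HES5, a repressor that Notch signalling switches on, was at 5.64 and 6.29 and at 2.80 and 2.03, against 10.61 to 14.05. With the replicate block the adjusted p in limma was 0.0137 for LGALS3, ZSCAN18 and ANGPTL2, 0.0245 for DHRS2, COL2A1 and ZNF441, 0.0173 for AGMAT, and 0.0575 for HES5, 0.0573 for DMRTA2 and 0.069 for ZNF793.

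Among genes higher in the CNOT3 line, a first set had both CNOT1 arrays below all of the other 8. KLHDC9, a kelch-domain protein, was at 2.47 and 2.98 in the CNOT1 line and at 7.96 and 8.14 in the CNOT3 line, a difference of -5.32 (SE 0.20). The CNOT2 arrays held 4.38 to 5.74 and the Luci arrays 7.27 to 7.68, so KLHDC9 was lower in the CNOT2 line too. SYNDIG1, a regulator of excitatory synapses, was at 3.00 and 4.04 against 8.39 and 8.35, with 6.05 to 8.07 elsewhere. The microfibril protein MFAP2 was at 2.86 and 2.25 against 6.87 and 7.34, with 6.74 to 7.81 elsewhere. CPNE7, a calcium-dependent membrane-binding copine, was at 3.55 and 4.35 against 8.78 and 8.21, with 7.62 to 10.32 elsewhere. In MFAP2 and CPNE7 the CNOT3 arrays lay inside the range of the others, in KLHDC9 and SYNDIG1 above it. TNFRSF10D, a decoy receptor for the death ligand TRAIL, was at 3.48 and 3.77 against 7.97 and 6.75, with 6.19 to 8.19 elsewhere. The keratin-associated protein KRTAP19-1 was at 4.04 and 2.74 against 7.70 and 7.39, with 4.82 to 6.53 elsewhere. SFTA3 was at 4.53 and 4.34 against 8.0 and 8.19, with 5.63 to 7.49 elsewhere. It lies on chromosome 14, where most genes were higher in the CNOT1 line. For KRTAP19-1 and SFTA3 the CNOT3 arrays also lay above all of the others.

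In a second set both CNOT3 arrays lay above all of the other 8, and the CNOT1 arrays did not both lie below them. TNMD, a membrane protein of tendon, was at 7.16 and 6.68 in the CNOT3 line, against 2.65 and 2.34 in the CNOT1 line and 2.24 to 3.32 on the other arrays. The neuronal adhesion protein ASTN1 was at 5.55 and 6.82 against 2.11 and 2.46, with 2.07 to 3.16 elsewhere. FOXA2, a transcription factor of endoderm, was at 5.71 and 5.96 against 2.05 and 2.34, with 1.79 to 3.83 elsewhere. In these 3 genes the CNOT1 arrays lay among the other 8. SPARC, a matrix glycoprotein, was at 7.02 and 7.04 against 2.06 and 3.04. The other arrays spread from 2.33 to 6.13 with a median of 5.47, so for SPARC the CNOT1 line was also low. TCEAL6, of a family of small X-linked proteins, was at 6.81 and 7.78 against 2.47 and 3.22, with 3.05 to 6.33 elsewhere and a median of 3.38 there. In the blocked limma fit the adjusted p was 0.0137 for KLHDC9, SYNDIG1 and CPNE7, 0.0245 for TNMD and ASTN1, 0.0477 for FOXA2, 0.0534 for SPARC and 0.101 for TCEAL6. All 24 genes had an adjusted p of 0.174 in the fit to the 4 arrays alone.

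**Figure D5:**
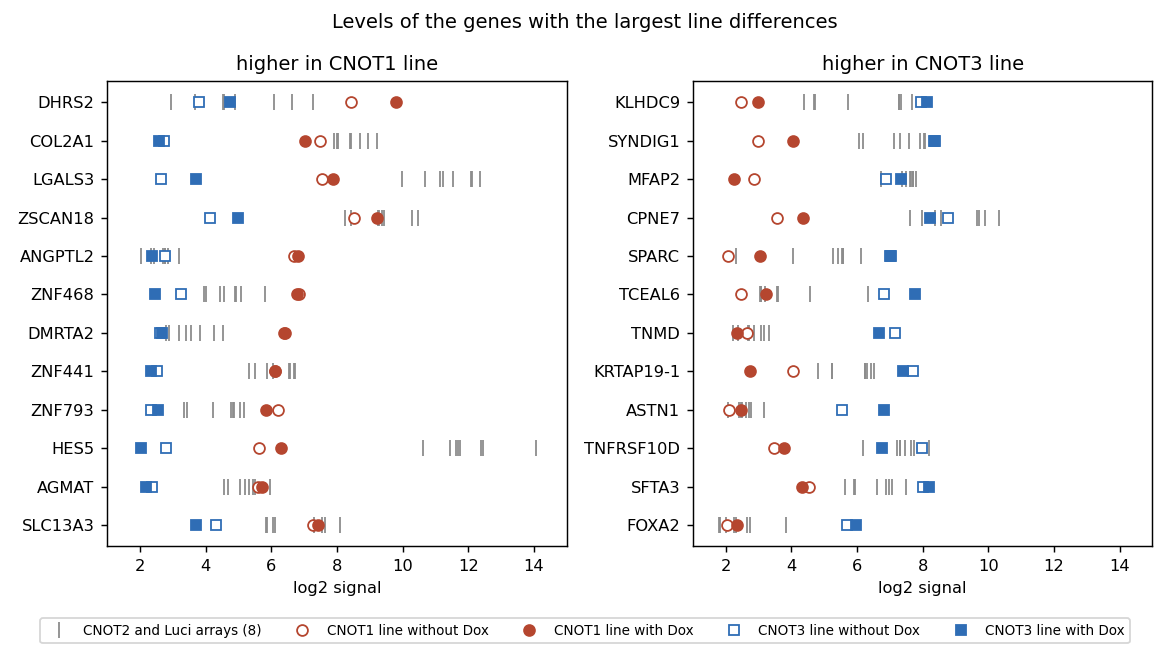
Log2 signal of the 12 genes with the largest difference in each direction, with CNOT1 arrays as circles, CNOT3 arrays as squares, open without and filled with Dox, and the 8 CNOT2 and Luci arrays as grey ticks. The 2 lines do not overlap for any of the 24 genes, and the ticks lie with one line, with the other, or outside both.

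Promoters of the genes higher in the CNOT3 line held fewer CG pairs. At least 15 CG in the 300 bases were found for 77.2% of tested genes with a matched promoter, for 77.1% of the 406 higher in the CNOT1 line and for 56.1% of the 330 higher in the CNOT3 line. Signal level goes with this count. Among genes with a mean signal under 6 the shares were 59.0% of 3948, 68.6% of 185 and 47.1% of 189.

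Some genes of antigen presentation and of the interferon response were higher in the CNOT3 line. Class II molecules of the major histocompatibility complex (MHC II) present peptides on specialised immune cells. Of 12 chains tested, 4 were higher in the CNOT3 line and 0 in the CNOT1 line, with a median of -0.83, against 2.97% and a median of 0.00 over all genes. The study itself singled out this family on these arrays, so the count is not independent of it. HLA-DPA1 was at 4.94 without and 6.19 with Dox in the CNOT1 line and at 7.29 and 8.90 in the CNOT3 line. Each line was higher with Dox than without, and the line difference was -2.35 and -2.71. HLA-DPB1 was at 4.02 and 5.65 against 5.90 and 7.53, and HLA-DRB5 at 5.02 and 5.87 against 6.28 and 7.43. The second HLA-DPA1 spot differed by -1.39, and the 4 HLA-DPB1 spots differed by -1.88 to -0.27. The 8 other arrays held 8.05 to 11.05 for HLA-DPA1, so both CNOT1 arrays and the CNOT3 array without Dox lay below them. HLA-DQB1 was at 8.23 and 8.66 against 7.93 and 8.43, a difference of 0.27 (SE 0.18). None of 7 factors that drive the family passed 2-fold, against 6.31% of all genes, and so short a list says little. RFX5 was at 9.48 and 9.28 against 9.49 and 9.43, and RFXANK at 11.89 and 12.03 against 11.65 and 11.93.

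Of 32 interferon-stimulated genes, 6 (18.8%) were higher in the CNOT3 line and 0 in the CNOT1 line, against 2.97% and 3.34% of all genes, with a median of -0.50. The 3 IFITM genes, which code for membrane proteins that block virus entry and lie together on chromosome 11, were among them. IFITM3 was at 8.82 and 9.10 against 10.98 and 11.45, with 10.24 to 11.55 on the others. IFITM1 was at 9.02 and 9.48 against 10.55 and 10.80, and IFITM2 at 9.48 and 9.70 against 10.64 and 11.05. For all 3 the CNOT1 arrays lay below the 8 others. BST2, which tethers virus particles, was at 5.94 and 6.28 against 7.15 and 8.34, and IFI35 at 4.05 and 5.29 against 5.41 and 7.25. MHC class I chains and peptide loading had 0 of 19 members past 2-fold either way, against 6.31% of all genes, with a median of 0.08. In so short a list a count of 0 says little.

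Genes of nerve cells varied in both directions. Of 34 neuronal genes, 5 (14.7%) were higher in the CNOT3 line and 4 (11.8%) in the CNOT1 line, against 2.97% and 3.34% of all genes. After centring on the chromosome median, 5 were higher in the CNOT3 line and 1 in the CNOT1 line. Over all 15000 placed genes these counts were then 461 and 316. SNAP25, of the synaptic release machinery, was at 6.54 and 6.89 in the CNOT3 line, against 2.48 and 4.51 in the CNOT1 line and 2.66 to 4.44 elsewhere. The growth cone protein GAP43 was at 5.42 and 6.64 against 2.87 and 4.85. NRXN3, a synaptic adhesion protein, was low in the CNOT1 line, at 3.49 and 2.10, against 6.43 and 6.01 in the CNOT3 line and 4.93 to 6.08 elsewhere. The neurofilament-like INA was higher in the CNOT1 line, at 10.66 and 10.62 against 9.11 and 9.61. Of 40 voltage-gated channel genes, 5 (12.5%) were higher in the CNOT1 line and 4 (10.0%) in the CNOT3 line, against 3.34% and 2.97% of all genes. The potassium channel KCNC1 was at 8.11 and 8.80 against 5.66 and 6.42, and KCNB2 at 3.86 and 3.47 against 6.70 and 5.71. In the BEX, TCEAL and ARMCX families of the X chromosome, 4 of 18 (22.2%) were higher in the CNOT3 line and 0 in the CNOT1 line, against 2.97% and 3.34% of all genes, with a median of -0.20. BEX5 was at 9.91 and 9.90 there, against 8.04 and 8.16 and 4.95 to 7.75 on the others, and TCEAL5 at 5.69 and 6.70 against 3.20 and 3.11.

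Among signalling genes, the shares are to be read against 3.34% of all genes higher in the CNOT1 line and 2.97% higher in the CNOT3 line. In the Wnt pathway, 3 of 40 (7.5%, against 2.97%) were higher in the CNOT3 line and 0 in the CNOT1 line. RNF43, which removes Wnt receptors from the cell surface, was at 5.71 and 5.76 against 7.89 and 7.96, and the ligand WNT6 at 3.59 and 3.92 against 5.75 and 5.96. Both were below the 8 other arrays in the CNOT1 line, and WNT6 was so in the CNOT3 line as well. In the TGF-beta and BMP pathway, 4 of 43 (9.3%, against 3.34%) were higher in the CNOT1 line and 2 (4.7%, against 2.97%) in the CNOT3 line, the latter near the share of all genes. After centring on the chromosome median these counts were 2 and 3. The ligand BMP2 was at 4.85 and 3.85 in the CNOT1 line and 7.63 and 7.13 in the CNOT3 line, with 5.16 to 6.28 elsewhere, so the lines lay on either side of the rest. TGFB3 was at 5.43 and 5.90 against 3.96 and 3.78. In the Notch pathway, 2 of 23 (8.7%, against 3.34%) were higher in the CNOT1 line, HES5 and NRARP. After centring on the chromosome median, 1 of the 23 was. The bright Notch target HES4 was at 14.14 and 14.07 against 14.70 and 14.59, with 15.45 to 15.64 on the others.

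Of 28 p53 target genes, 2 (7.1%, against 3.34% of all genes) were higher in the CNOT1 line. A positive difference was found for 23, against 7509 of all 15048 genes, with a median of 0.50 over the list. The list had 0 members on chromosomes 9 and 14, and its median was 0.49 after centring on the chromosome. SPATA18 was at 7.06 and 6.84 against 4.35 and 5.04, and PHLDA3 at 7.29 and 7.75 against 6.08 and 5.87. The CNOT3 arrays lay below the 8 others for both, which held 6.30 to 7.33 and 7.04 to 7.61. HEK-293T cells carry T antigen, which binds p53. Of 37 mesenchymal and matrix genes, 4 (10.8%) were higher in the CNOT3 line and 1 (2.7%) in the CNOT1 line, against 2.97% and 3.34% of all genes, with a median of -0.40. The smooth muscle actin ACTA2 was the latter, at 7.64 and 8.41 against 5.67 and 6.57. ALDH1A3, which makes retinoic acid, was at 2.75 and 3.29 in the CNOT1 line against 6.97 and 6.27 in the CNOT3 line, below the 7.11 to 8.88 of the others in both.

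Several groups had no member past 2-fold in both Dox states, where 6.31% of all genes were, so few members would be counted at that share. These were the 75 cytoplasmic ribosomal proteins, 34 proteasome subunits, 51 cell cycle genes and 35 HOX genes, with medians of 0.00, 0.01, 0.07 and -0.10. Ribosomal protein signals lay at the top of the signal range. Of 61 histone genes, 4 (6.6%, against 3.34% of all genes) were higher in the CNOT1 line and 2 (3.3%, against 2.97%) in the CNOT3 line, the latter near the share of all genes. The linker histone HIST1H1D was at 7.64 and 7.76 against 10.80 and 10.27, and HIST1H2BK at 11.93 and 12.25 against 9.98 and 10.56.

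The line difference was then compared between the Dox states. In limma on all 12 arrays, 0 of 15048 genes (0.0%) passed an adjusted p of 0.05 for this interaction, and 419 had an unadjusted p under 0.05. CNOT1 went from a line difference of 0.74 without Dox to -1.28 with Dox, an interaction of -2.02 (SE 0.60). CNOT3 went from 1.25 to 3.48. The 2 largest interactions by size each came from 1 array. OR7C2, an odorant receptor, was at 13.07 in the CNOT1 line without Dox and at 2.52 to 3.18 on the other 3 arrays, and its second spot differed by 0.68 between the lines. EFCAB5 was at 7.68 in the CNOT3 line without Dox and at 2.38 to 2.63 on the rest of the 4. Whether such a value belongs to the culture or to the array was not tested, since the condition has 1 array.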

How the data were processed

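Per the paper, the authors labelled RNA with Cy3, hybridised it to Agilent arrays, took the log of mean spot signals, corrected background with NormExp on negative control spots and quantile-normalised. The deposited values, 1 per spot and array, were taken as log2 from their range and used as they are, with quartiles of 2.54, 3.34 and 6.69 on all arrays. Detection calls were not used here, so values near the floor carry little order and their folds are uncertain. Of 62976 spots, 37051 had a gene symbol. The spot brightest over the arrays stood for a gene, which gave 20042 genes. Those with a mean over the 4 arrays under the 25th percentile (2.995) were left out, and 15048 remained. Chromosomes and gene order came from RefSeq, to which 20024 genes matched. Probe coordinates were not used here.

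The line coefficient was tested with limma 3.58.1 in R 4.3.3, with Dox state as a term and Benjamini-Hochberg adjustment over all genes. The fit was tested on simulated data. The interaction was fitted on 12 arrays with 8 group means, so the single arrays were assumed to vary like the CNOT2 and Luci groups. Same-numbered arrays deviated together in all 6 pairs of groups (correlations of 0.368 to 0.619), so the replicate block is given beside the result, and arrays with no number were counted as number 1. For 1 Luci array the title and the characteristics name opposite Dox states, and the title was used. Where nothing says that arrays come from separate cultures, p-values measure the spread between these arrays.

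Named genes were the 12 with the largest difference in each direction past 2-fold in both Dox states, the 3 targeted subunits, up to 4 members past 2-fold and the 2 brightest of each list, and the 6 with the largest interaction. The ZNF genes of chromosome 19 other than ZNF441, ZNF468, ZNF793 and ZNF256 were named after their values were seen. Members and lists were chosen with earlier results of these data known.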

Additional observations from a re-analysis of the deposited data

Results flagged for a closer look

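The lines differed by more than 2-fold in opposite directions without and with Dox for 113 genes, with 56 higher in the CNOT1 line without Dox and lower with it, and 57 the other way. The test of this interaction passed for 0 genes at an adjusted p of 0.05 in limma, and 419 had an unadjusted p under 0.05. The median level of the 113 genes was 3.51, against 7.28 over all genes tested. NFIX, for example, was at 2.74 and 4.53 in the CNOT1 line without and with Dox and at 5.47 and 2.41 in the CNOT3 line, and PDCD1 was at 5.08 and 2.47 against 2.34 and 4.80.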

How the results depend on the processing

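In the fit to 4 arrays 0 genes passed, and 0 also passed without the Dox term, without the filter, with the mean of a gene's spots, with arrays centred on their medians, and with 12 arrays less the Luci array of uncertain label. Leaving out either Dox state also gave 0, in the 12-array fit where the single array of a line is assumed to vary like the other groups, which says nothing about stability. With all 12 arrays 12 genes passed, with the replicate block 231, with the intensity trend 2838, with genes filtered at the median level 953, and with 12 arrays and the trend, added after seeing the data, 47. The interaction passed for 0 genes in every alternative run, the replicate block included. The count of 950 genes past 2-fold became 480 with genes filtered at the median level and 108 at 4-fold. Centred on chromosome medians, an alternative added after seeing the data, it became 777 (316 higher in the CNOT1 line and 461 in the CNOT3 line). Of these, 280 and 358 were also counted without centring, so the membership changed. Chromosome 9 was centred as a whole here too, although its stretches went in opposite directions. Without the filter it was 992, with mean spots 785 and with centred arrays 955. Over 175 named genes no direction reversed, with 1813 alternatives on the same side of the threshold and 222 newly past it. The causes were not tested. With 1 array per condition, the number of arrays limits the precision.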

Other observations

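Of 31 genes of cholesterol and fatty acid synthesis, 0 passed 2-fold in both Dox states, against 6.31% of all genes. A negative difference was found for 26 of them, against 7499 of all 15048 genes. Their median was -0.40 without and -0.39 with Dox. After centring on the chromosome the median was -0.34. FDPS, which makes farnesyl diphosphate, was at 12.25 and 12.16 in the CNOT1 line and 12.59 and 12.38 in the CNOT3 line. Of 41 stress and unfolded protein response genes, 3 (7.3%) were higher in the CNOT3 line and 1 (2.4%) in the CNOT1 line, against 2.97% and 3.34% of all genes. The secretory pathway factor XBP1, on chromosome 22, was at 11.74 and 11.75 against 13.17 and 13.37. Of the other arrays, those numbered 1 held 12.65 to 12.9 and those numbered 2 held 14.11 to 15.13. The small heat shock protein HSPB1 was at 12.53 and 12.64 against 13.69 and 13.97.

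The imprinted growth factor IGF2 was at 10.35 and 10.50 in the CNOT1 line and 8.77 and 9.32 in the CNOT3 line, where it lay below the 10.32 to 11.89 of the others, while its second spot differed by 0.20 between the lines. Among transcription factors, GATA3 was at 3.65 and 4.58 against 6.19 and 5.98, and both lines lay below the 7.46 to 8.08 of the others. Of 18 clustered protocadherins, which give neurons their surface identity, 3 (16.7%, against 3.34% of all genes) were higher in the CNOT1 line and 0 in the CNOT3 line, with a median of 0.54. PCDHB11 was at 4.92 and 5.57 against 3.17 and 3.79, with 2.95 to 3.98 elsewhere.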
